A study of Mus musculus with 63 samples.

Results

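Bmp10, Myl7, Myl4, Sln, Dkk3, Nr2f1 and Stard10 are genes with transcripts known from the atria of the mouse heart, and were read here, per heart, as a gauge of atrial tissue in dissected hearts. They were taken by symbol from the count table, and all 7 were found among its 23429 genes. The mice were of the FVB/N strain and were sampled on day 1 after birth (P1), on day 21 (P21) or at 5 weeks of age. Mfn2wt hearts overexpressed human mitofusin 2, a mitochondrial outer membrane protein, and Mfn2AA hearts overexpressed it with the substitutions T111A and S442A. The controls were labelled tet-off control and nontransgenic. At P1 there were 3 Mfn2AA, 4 Mfn2wt, 5 tet-off control and 6 nontransgenic hearts, at P21 6, 6, 5 and 6, and at 5 weeks 4, 4, 3 and 4, in that order of genotypes. All libraries of an age were prepared together, so age and library batch are one split, except for nontransgenic RNA that was also made into libraries in the P1 batch: 3 hearts of P21 and 3 of 5 weeks, which repeat earlier libraries, and 1 further heart of 5 weeks that was run in the P1 batch alone. The labels give whole heart at P1 and left ventricle later, while the protocol names ventricular apexes for every sample; the promoter that drives the transgene, the sex of the mice and any pooling are not given in the sources used here.

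The 63 libraries held between 4557894 and 24339146 counted reads, of which the ribosomal precursor Rn45s took 1.98% to 34.4%. Median FPKM (fragments scaled by transcript length and library size) of the human Mfn2 cDNA was 1959 in Mfn2AA and 298 in Mfn2wt hearts at P1, 5600 and 1551 at P21, and 486 and 1450 at 5 weeks, against 5.25 to 39.4 in the control groups of those batches. Mutated residues and transgene level therefore cannot be told apart between Mfn2AA and Mfn2wt. Single tet-off control hearts held up to 362 FPKM of this cDNA at P21, 190 at 5 weeks and 155 at P1. Among nontransgenic hearts the highest held 97.6 at P1, and a 5-week heart in the P1 batch held 177. Myl2, the regulatory light chain of the ventricle, lay between 2703 and 12298 CPM (read counts scaled to library size by the TMM method) in every library, so each held ventricular muscle RNA. CPM is the scale of all levels below unless FPKM is named. In bulk tissue, fewer cells of a type and less RNA per cell cannot be told apart.

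Atrial and ventricular muscle share most of the contractile machinery but use different light chains, hormones and calcium regulators. Myl7 is the regulatory and Myl4 the essential myosin light chain of atrial muscle. Sln encodes sarcolipin, a small inhibitor of the SERCA calcium pump that in mice is far more abundant in atria than in ventricles. Bmp10 encodes a secreted ligand of the BMP family; it is made by trabecular muscle of the embryonic heart and after birth mainly by the right atrium, and it signals through ALK1 (Acvrl1) on endothelial cells. Dkk3 encodes a secreted protein of the Dickkopf family, Nr2f1 a nuclear receptor (COUP-TFI) whose close relative Nr2f2 sets atrial identity, and Stard10 a lipid transfer protein with a START domain.

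In the deposited annotation (mm10) each of the 7 genes has 1 transcript. Bmp10 lies on chromosome 6 from 87429002 to 87434512, plus strand, in 2 exons. Myl7 lies on chromosome 11 from 5896637 to 5898782, minus strand, in 7 exons, and Myl4 on the same chromosome from 104550663 to 104587219, plus strand, in 9 exons. Sln spans 53850251 to 53853849 on chromosome 9, plus strand, in 2 exons. Dkk3 and Stard10 are both on chromosome 7, Dkk3 from 112116019 to 112159057, minus strand, in 8 exons, and Stard10 from 101321319 to 101346312, plus strand, in 7 exons. Nr2f1 spans 78188973 to 78198982 on chromosome 13, minus strand, in 3 exons, and its exons overlap those of A830082K12Rik on the plus strand. The libraries do not keep strand, so reads of that pair cannot be told apart. Exons of the other 6 overlap no other gene.

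The 250 bases before the start of 3 members are shown, since Myl7 and Myl4 moved together in the hearts and Bmp10 followed them loosely. They are from RefSeq (GRCm38.p6), which had such windows for 5 of the 7 genes (Bmp10, Myl7, Myl4, Nr2f1 and Stard10), and run 5′ to 3′ on the strand of the gene, with GATAA, the core bound by GATA factors, and the CArG box, the element bound by serum response factor, in capitals.
Myl7 (chr11:5898783-5899032, minus strand): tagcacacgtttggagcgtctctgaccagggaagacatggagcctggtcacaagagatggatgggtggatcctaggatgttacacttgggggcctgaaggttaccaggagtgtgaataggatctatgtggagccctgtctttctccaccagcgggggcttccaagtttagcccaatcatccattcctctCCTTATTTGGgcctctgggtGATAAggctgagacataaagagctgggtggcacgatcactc
Myl4 (chr11:104550413-104550662, plus strand): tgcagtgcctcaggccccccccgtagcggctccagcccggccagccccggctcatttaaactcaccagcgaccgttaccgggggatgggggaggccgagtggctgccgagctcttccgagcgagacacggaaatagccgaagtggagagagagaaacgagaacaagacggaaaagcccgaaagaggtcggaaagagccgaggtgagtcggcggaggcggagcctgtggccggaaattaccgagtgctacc
Bmp10 (chr6:87428744-87428993, plus strand): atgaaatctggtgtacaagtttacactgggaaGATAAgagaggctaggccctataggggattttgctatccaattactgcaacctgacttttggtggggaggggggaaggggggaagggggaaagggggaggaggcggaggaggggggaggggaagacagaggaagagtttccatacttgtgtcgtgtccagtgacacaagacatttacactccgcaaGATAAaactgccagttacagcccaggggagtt
In Myl7 the CArG box stands 61 to 52 bases and GATAA 41 to 37 bases before the start. Bmp10 has GATAA 218 to 214 and 32 to 28 bases before a RefSeq start that lies 8 bases from the start in the deposited annotation. The Myl4 window has neither. Searched on both strands, GATAA is in 22.6% and the CArG box in 1.47% of 32851 such windows. A match describes the letters of the window and is not a measured binding site.

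The light chains were the most abundant of the 7 at each age. Median FPKM over the 18 hearts of the P1 batch was 898 for Myl7, 345 for Myl4, 38.8 for Sln, 21.1 for Stard10, 11.4 for Dkk3, 7.04 for Bmp10 and 1.83 for Nr2f1. At P21 (23 hearts) the medians were 109, 66.7, 23.1, 21.9, 4.2, 0.431 and 2.29 in the same order, and at 5 weeks (15 hearts) 129, 94.1, 28.6, 27.3, 14.5, 0.470 and 1.66. These medians of different ages stand in different library batches and are given as levels.

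The hearts spanned a wider range of both light chains at P21 and 5 weeks than at P1. For Myl7 the highest heart held 13.1 times the CPM of the lowest at P1, 1190 times at P21 and 228 times at 5 weeks. The same ratio was 13.8, 564 and 107 for Myl4, and 128, 5531 and 147 for Sln. Dkk3 spanned 14.3, 20.3 and 44.6 times, and Stard10 4.60, 17.1 and 8.26 times. Bmp10 spanned 16.7 times at P1 and had 1 heart at P21 and 3 at 5 weeks without a read. Nr2f1 had spans of 3.09, 2.38 and 2.96 times.

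**Figure D1:**
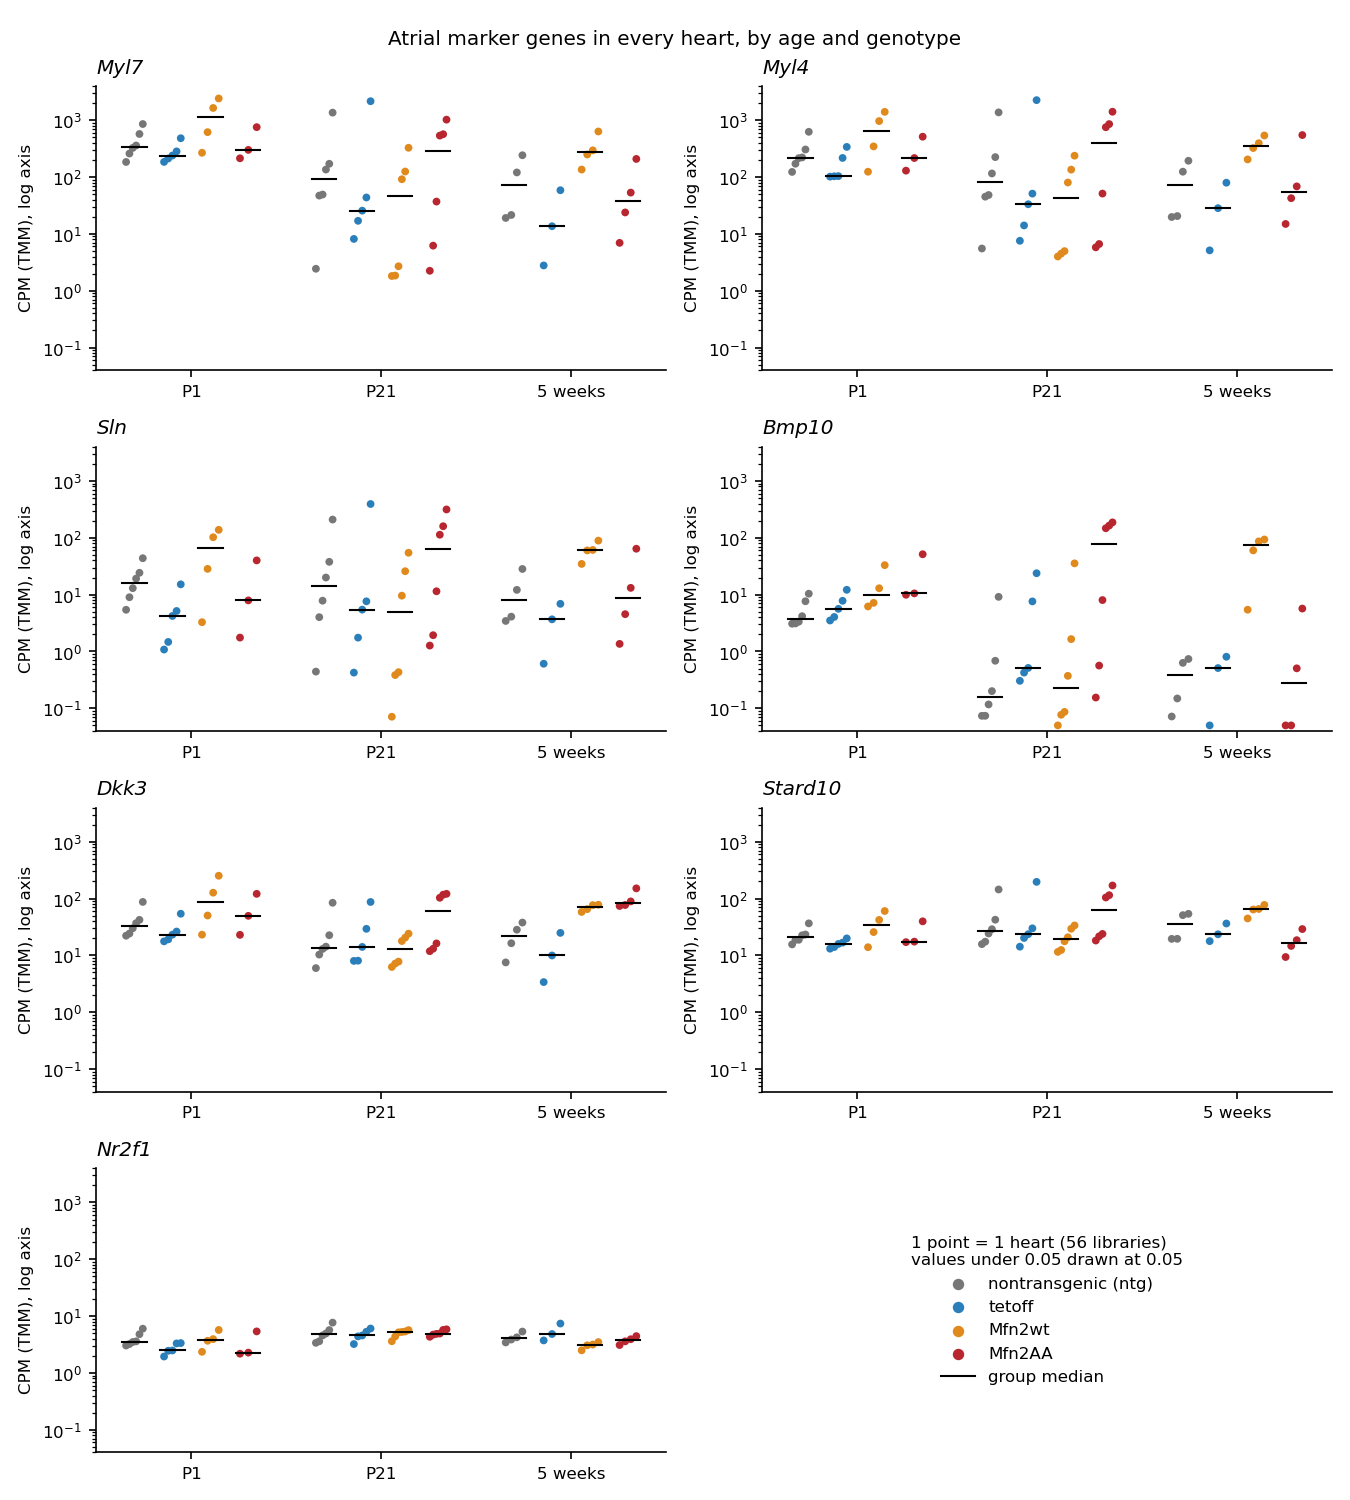
Level of each of the 7 genes in every heart (points, TMM CPM on a log axis, values under 0.05 drawn at 0.05) for the 56 libraries of the 3 age batches, coloured by genotype, with the median of each group as a bar. Myl7, Myl4 and Sln spread over more than 2 decades in at least 3 of the 4 P21 groups, whereas Nr2f1 lies between 1.95 and 7.69 CPM.

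Within the P21 groups, a few hearts carried most of the signal. Among Mfn2AA hearts Myl7 read 2.24, 6.21 and 37.0 CPM in hearts P21_Mfn2AA_10534-2, P21_Mfn2AA_10534-1 and P21_Mfn2AA_10534-6, and 537, 567 and 1023 CPM in hearts P21_Mfn2AA_10534-8, P21_Mfn2AA_10534-4 and P21_Mfn2AA_10534-5. Mfn2wt hearts held 1.81, 1.85 and 2.69 CPM in hearts P21_Mfn2wt_10583-5, P21_Mfn2wt_10583-2 and P21_Mfn2wt_10583-3, and 91.5, 125 and 327 CPM in hearts P21_Mfn2wt_10547-4, P21_Mfn2wt_10547-8 and P21_Mfn2wt_10547-9. Nontransgenic hearts held 2.43, 47.2, 49.2, 136 and 171 CPM, with 1360 CPM in heart P21_ntg_10547-2. In both transgenic groups the hearts thus fell into 3 low and 3 high ones. In Mfn2wt this split was also the split by the number in the title, 1 number in the low and another in the high hearts, and the meaning of that number is not given. Tet-off control hearts held 8.15, 17, 25.6 and 43.7 CPM, and heart P21_tetoff_10549-2 held 2160 CPM, the highest Myl7 of the P21 batch. The 4 genotypes overlapped, and each had hearts under 10 CPM and hearts over 40 CPM.

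Myl4, the partner light chain, followed Myl7 heart by heart. It read 5.80, 6.63, 51.2, 753, 855 and 1410 CPM in the P21 Mfn2AA hearts and 4.00, 4.49, 4.98, 80.2, 135 and 237 CPM in the Mfn2wt hearts. Nontransgenic heart P21_ntg_10547-2 stood at 1372 CPM and tet-off control heart P21_tetoff_10549-2 at 2255 CPM, far above the other hearts of their groups, which ended at 224 and 51.1 CPM. Sln ran from 1.27 to 315 CPM in Mfn2AA and from 0.0711 to 54.5 CPM in Mfn2wt hearts, and read 209 CPM in heart P21_ntg_10547-2 and 393 CPM in heart P21_tetoff_10549-2. The same hearts were therefore high for all 3 genes of the atrial sarcomere and its calcium pump.

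Stard10 and Dkk3 had a floor that the light chains lacked. In the P21 Mfn2AA hearts Stard10 read 18.3, 21.6 and 23.8 CPM where Myl7 was under 40 CPM, and 104, 115 and 170 CPM in the other 3. Dkk3 read 11.9, 13.1 and 16.2 CPM, and 103, 117 and 121 CPM, in the same 2 sets of hearts. Both genes were thus present at 5 CPM or more in P21 hearts with Myl7 near 2 CPM. Outside Mfn2AA, the highest P21 values were again in hearts P21_tetoff_10549-2 and P21_ntg_10547-2, with 197 and 144 CPM of Stard10 and 87.1 and 84.3 CPM of Dkk3.

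At P1 no heart was without atrial light chain reads. Myl7 ran from 184 to 857 CPM in nontransgenic (median 342) and from 185 to 482 CPM in tet-off control hearts (median 239). The Mfn2AA hearts read 214, 300 and 755 CPM, and the Mfn2wt hearts 268, 617, 1643 and 2416 CPM. Hearts P1_Mfn2wt_10546-1 and P1_Mfn2wt_10546-3 of the Mfn2wt group held the highest Myl7, Myl4 and Sln of that age. Bmp10 was highest in Mfn2AA heart P1_Mfn2AA_10586-3 at 51.4 CPM, against 3.08 to 33.0 CPM in the other 17 hearts.

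At 5 weeks the Mfn2wt group had the highest median of both light chains, and its hearts overlapped with those of Mfn2AA for both. Myl7 read 136, 249, 295 and 634 CPM in Mfn2wt, 6.95, 23.8, 53.3 and 208 CPM in Mfn2AA, 19.1, 21.5, 121 and 242 CPM in nontransgenic and 2.78, 13.6 and 58.6 CPM in tet-off control hearts. Sln read 34.7 to 89.2 CPM in Mfn2wt and at most 28.3 CPM in nontransgenic and 6.89 CPM in tet-off control hearts. Mfn2AA hearts read 1.36, 4.53 and 13.2 CPM of Sln, with 64.2 CPM in heart 5wk_Mfn2AA_10289-9. That heart was also the highest of its group for Myl4 (548 CPM), Dkk3 (151 CPM) and Stard10 (29.0 CPM). Its Myl4 was the highest of the 5-week batch, above the 204 to 539 CPM of the Mfn2wt hearts. Its Bmp10 count was 0.

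The genes varied together across hearts of one age. Each age had 21 pairs of members, and Benjamini-Hochberg adjusted permutation p-values over the 63 pairs were under 0.05 in 18 pairs at P1, 18 at P21 and 10 at 5 weeks (two-sided, Spearman's rho). Hearts were permuted freely across genotypes and title numbers, so these p-values mix differences between groups with variation within them. Myl7 and Myl4 had rho of 0.96, 0.98 and 0.95 at P1, P21 and 5 weeks, with Pearson's r of log2(CPM + 0.5) of 0.98, 0.99 and 0.97 (n = 18, 23 and 15; adjusted permutation p = 3.15e-05 for rho at each age, from the smallest p that 100000 permutations allow, 1e-05). Without the 2 hearts farthest from the median of Myl7, r was 0.96, 0.99 and 0.96. Myl7 and Sln had rho of 0.91, 0.95 and 0.95. The proportion of the light chains varied among hearts, and the ages stand in different library batches. Myl4 FPKM was 0.245 to 0.436 times that of Myl7 at P1 and 0.412 to 1.53 times at P21. At 5 weeks it was 0.455 to 1.5 times. The highest P21 ratio was in heart P21_Mfn2wt_10583-2, with 26 reads of Myl7 and 70 of Myl4. RNA of heart P21_ntg_10547-1 gave a ratio of 0.745 in its own batch and 0.587 in the P1 batch.

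Nr2f1 had an adjusted p under 0.05 with 5 of the other 6 members at P1, where Bmp10 was the one it did not follow (rho 0.08), with Myl7, Myl4 and Sln at P21, and with none at 5 weeks. Its rho with Myl7 was 0.68 at P1 (adjusted permutation p = 0.0049) and 0.45 at P21 (adjusted permutation p = 0.0479), and -0.44 at 5 weeks (adjusted permutation p = 0.122). At P21 the hearts with the highest Nr2f1 were again P21_ntg_10547-2 at 7.69 CPM and P21_tetoff_10549-2 at 6.06 CPM, but Mfn2AA heart P21_Mfn2AA_10534-2, with 2.24 CPM of Myl7, still held 4.33 CPM. All 6 pairs with negative rho were pairs of Nr2f1 at 5 weeks, and none of these 6 had an adjusted p under 0.05.

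Bmp10 followed the light chains loosely. Its rho with Myl7 was 0.55 at P1, 0.72 at P21 and 0.55 at 5 weeks (adjusted permutation p = 0.0305, 0.00042 and 0.0494). Pearson's r was 0.60, 0.67 and 0.53, and without the 2 hearts farthest from the median of Bmp10 it was 0.35, 0.63 and 0.37. Leaving out such hearts narrows the range of Bmp10, so the lower r does not show that the relation rested on them. Dkk3 had rho of 0.95, 0.81 and 0.49 with Myl7, and Stard10 0.92, 0.86 and 0.88.

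**Figure D2:**
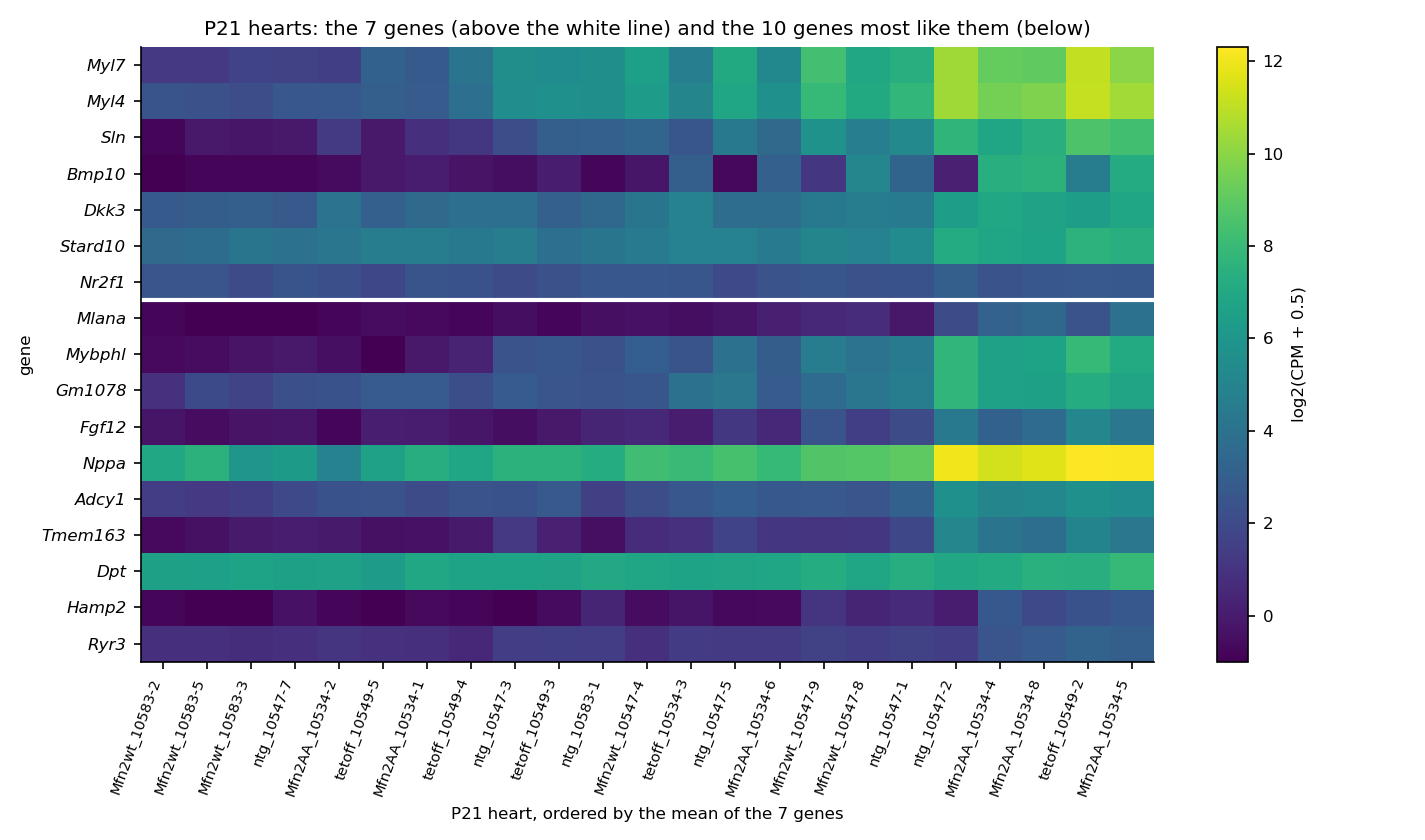
Level of the 7 genes and of the 10 genes most like them in the 23 hearts of the P21 batch, as log2(CPM + 0.5), with hearts ordered from left to right by the mean of the 7 genes. Hearts P21_tetoff_10549-2, P21_ntg_10547-2, P21_Mfn2AA_10534-5, P21_Mfn2AA_10534-8 and P21_Mfn2AA_10534-4 are high for Myl7, Myl4, Sln, Dkk3 and Stard10 together, while Bmp10 is low in heart P21_ntg_10547-2.

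The genes most like the 7 were ranked by Spearman's rho with their mean log2(CPM + 0.5), over 12864, 12762 and 12884 other genes at P1, P21 and 5 weeks. Mybphl, a myosin binding protein H-like gene of atrial muscle and conduction cells, came within the first 10 at each age, with rho of 0.93, 0.96 and 0.95. Gm1078 was the other gene among the first 10 at all 3 ages. At P1 the first was Fgf12 (0.97), an intracellular modulator of sodium channels, followed by Mybphl, Sbk2, Arl4d, Bgn, Camk1d, Clu, Gm1078, Gpx3 and Mfap2. At P21 the list was Mlana (0.96), Mybphl, Gm1078, Fgf12, Nppa (0.92), Adcy1, Tmem163, Dpt, Hamp2 and Ryr3, and at 5 weeks Mybphl, Tmem163 (0.89), Myrip, Gm1078, Ddit3, Aldh1b1, Mt3, Tenm4, Chd5 and Fam83h. Nppa, the gene of atrial natriuretic peptide, ranked 379 at P1, 5 at P21 and 1704 at 5 weeks. These likenesses are over the same libraries from which the 7 genes were read and carry no test. They run across genotypes, so they mix differences between groups with variation within them. Of 60 values under 2 other measures, 58 stayed within 0.1. Those that did not were Ddit3 (0.757) and Fam83h (0.7) at 5 weeks, by Spearman's rho on FPKM.

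The ratio of Bmp10 to Myl7 was not fixed among hearts. At P1 it lay between 3.90 and 68.0 Bmp10 reads per 1000 Myl7 reads. At P21 Mfn2AA hearts P21_Mfn2AA_10534-4, P21_Mfn2AA_10534-5, P21_Mfn2AA_10534-6 and P21_Mfn2AA_10534-8 held 289, 144, 217 and 348 reads, with exact Clopper-Pearson 95% intervals of 276 to 303, 137 to 151, 175 to 266 and 329 to 368 that cover counting error only. Nontransgenic heart P21_ntg_10547-2, with more Myl7 than any of those 4, held 0.505 (0.164 to 1.18), which is 5 Bmp10 reads against 9905 of Myl7. Its RNA gave 0.541 (0.270 to 0.968) when made into a library again in the P1 batch. Tet-off control heart P21_tetoff_10549-2 held 11 (9.77 to 12.4). Hearts P21_ntg_10547-2 and P21_Mfn2AA_10534-5, both above 1000 CPM of Myl7, thus differed by more than 100 times in Bmp10 per Myl7 read.

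High ratios were not confined to Mfn2AA hearts. At P21 tet-off control heart P21_tetoff_10534-3 held 297 (238 to 367) and Mfn2wt heart P21_Mfn2wt_10547-8 held 284 (254 to 316), while Mfn2wt hearts P21_Mfn2wt_10547-4 and P21_Mfn2wt_10547-9 held 4.07 (1.11 to 10.5) and 5.04 (3.60 to 6.87). Heart P21_tetoff_10534-3 shares the number in its title with the Mfn2AA hearts of P21, and the labels do not say what that number stands for. At 5 weeks Mfn2wt hearts 5wk_Mfn2wt_15926-4, 5wk_Mfn2wt_15930-8 and 5wk_Mfn2wt_15931-9 held 293 (257 to 333), 443 (415 to 474) and 375 (338 to 415), and Mfn2wt heart 5wk_Mfn2wt_15934-5, the highest of its group for Myl7, held 8.57 (6.26 to 11.4). The 4 nontransgenic hearts of the 5-week batch held 3.05 to 7.81, and the nontransgenic heart run in the P1 batch alone, 5wk_ntg_15933-3, held 99.8 (80.9 to 122). The hearts of 5 weeks without Bmp10 reads included Mfn2AA hearts 5wk_Mfn2AA_10289-9, with 3586 Myl7 reads, and 5wk_Mfn2AA_10287-8, with 996, for which the upper bounds were 1.03 and 3.71 per 1000. The other Mfn2AA hearts of that age, 5wk_Mfn2AA_10289-7 and 5wk_Mfn2AA_10289-8, held 239 (196 to 289) and 72.6 (37.9 to 127).

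**Figure D3:**
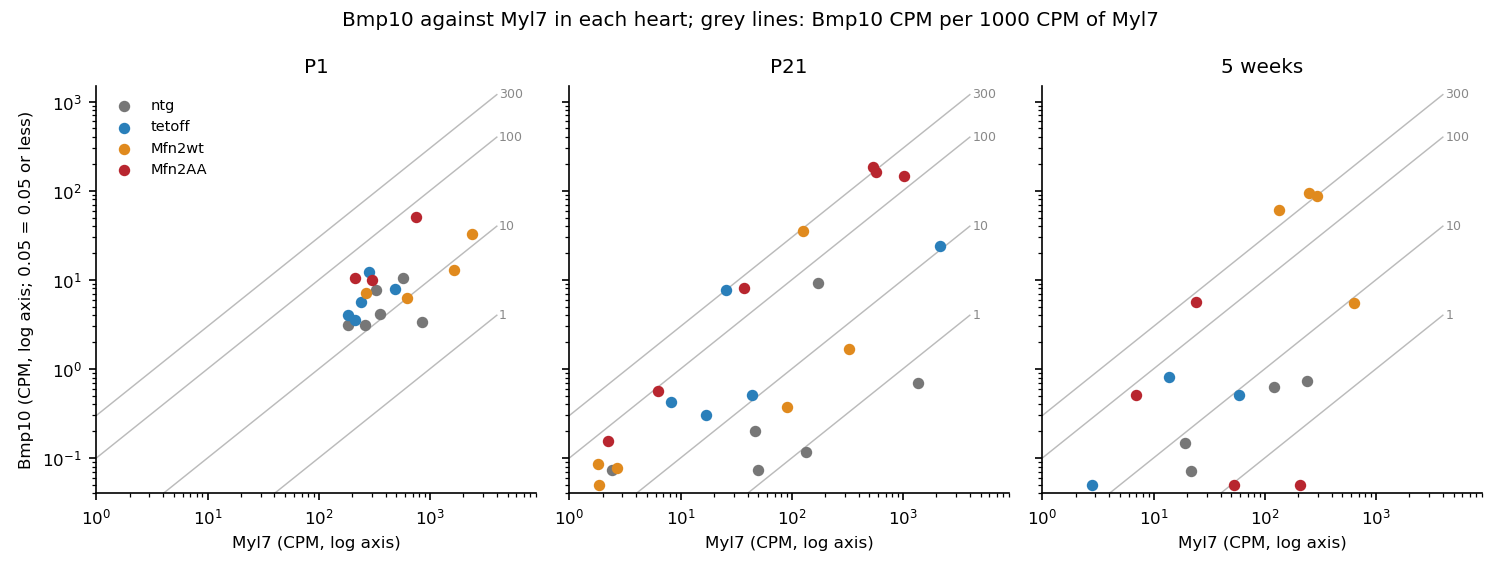
Bmp10 against Myl7 in every heart (TMM CPM, both axes logarithmic), coloured by genotype and split by age, with lines of equal ratio and Bmp10 of 0.05 or less drawn at 0.05. Hearts of P1 lie between 3.08 and 51.4 CPM of Bmp10, whereas at P21 and 5 weeks hearts with 100 to 2160 CPM of Myl7 hold from 0 to 187 CPM of Bmp10.

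At P1 the mutant and wild-type transgenes, their drivers and the nontransgenic state were compared by edgeR's quasi-likelihood test across 13653 genes, with all 7 members tested. No member was called at a Benjamini-Hochberg adjusted p under 0.05 in any of the 4 comparisons, where 0.125% (Mfn2AA against Mfn2wt), 0.00732% (Mfn2AA against tet-off control), 0.146% (Mfn2wt against nontransgenic) and 1.3% (tet-off control against nontransgenic) of all genes tested were called. DESeq2 and limma called no member in these comparisons either. Unadjusted p was under 0.05 for 2, 1, 6 and 1 members in that order. The share of all genes under that p is not given here. Members are not separate pieces of evidence: rho among Myl7, Myl4, Sln, Dkk3 and Stard10 was 0.87 to 0.96 over the P1 hearts. All Mfn2wt hearts of P1 share a title number that most nontransgenic hearts lack, so genotype and that number are largely the same split. Mfn2wt hearts ranged from 268 to 2416 CPM of Myl7. Mfn2wt against nontransgenic had the most members under that p, and 6 of the 7 genes had higher means in Mfn2wt. The median log2 fold change was 1.47 against 0.00 for all genes. Myl7 had the smallest p there, 1236 against 426 CPM, a log2 fold change of 1.52 ± 0.48 (SE; adjusted p = 0.181), and the 2 groups overlapped. Mfn2AA had a lower mean Myl7 than Mfn2wt, 423 against 1236 CPM (log2 fold change -1.56 ± 0.60, adjusted p = 0.374). Against tet-off controls the smallest p was that of Bmp10, 23.9 against 6.63 CPM (1.81 ± 0.55, adjusted p = 0.396), and between the controls that of Nr2f1, 2.71 against 4.03 CPM (-0.58 ± 0.27, adjusted p = 0.296). These comparisons, like those of the later ages, share groups of hearts and are not independent.

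At P21 Mfn2AA hearts had more Bmp10 and Dkk3 than Mfn2wt hearts. Mean Bmp10 was 84.5 against 6.28 CPM (6 hearts each), a log2 fold change of 3.81 ± 1.19 (edgeR adjusted p = 0.0338). Its values were 0.155, 0.564, 8.02, 147, 164 and 187 CPM in Mfn2AA, and 0, 0.0769, 0.0864, 0.373, 1.65 and 35.5 CPM in Mfn2wt hearts, so the groups overlapped. Mean Dkk3 was 63.7 against 14 CPM (2.20 ± 0.70, adjusted p = 0.0364); the Mfn2wt hearts read 6.26 to 24.1 CPM, above which 3 of the 6 Mfn2AA hearts lay. Of all 13585 genes tested 13.7% were called, 7.52% as higher. All 7 members had higher means in Mfn2AA, with a median log2 fold change of 2.20 against -0.01 for all genes. Stard10 differed by 1.85 ± 0.66 (adjusted p = 0.0633). Myl7, Myl4 and Sln differed by 1.98, 2.72 and 2.67 with standard errors of 1.37 to 1.45, and Nr2f1 by 0.05.

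Neither P21 call held when most single hearts were left out. Leaving out Mfn2AA heart P21_Mfn2AA_10534-4, P21_Mfn2AA_10534-5 or P21_Mfn2AA_10534-8 gave adjusted p of 0.0744, 0.0588 and 0.0639 for Bmp10 and 0.093, 0.0763 and 0.065 for Dkk3. Leaving out Mfn2wt heart P21_Mfn2wt_10547-9, P21_Mfn2wt_10583-2, P21_Mfn2wt_10583-3 or P21_Mfn2wt_10583-5 gave 0.0767, 0.0646, 0.0645 and 0.0682 for Bmp10 and 0.0532, 0.0708, 0.0698 and 0.0739 for Dkk3, and leaving out Mfn2wt heart P21_Mfn2wt_10547-4 ended the Bmp10 call alone (adjusted p = 0.0546). Without Mfn2wt heart P21_Mfn2wt_10547-8 the log2 fold change of Bmp10 was 7.15 (adjusted p = 0.00303). DESeq2 gave an adjusted p of 0.0889 for Bmp10, edgeR on the 2 groups alone 0.0508, and limma on FPKM 0.0977 for Bmp10 and 0.123 for Dkk3.

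Genes of other cell types also differed in this P21 comparison, where 13.7% of all genes were called, 7.52% as higher. The lists counted here were not tested as lists. Of the ventricular marker list 2 of 7 were lower in Mfn2AA, Myl2 (6207 against 9166 CPM, -0.56 ± 0.14, adjusted p = 0.00823) and the potassium channel subunit Kcnip2 (-0.39, adjusted p = 0.0337). The summed level of that list was 10804 to 14405 CPM in Mfn2AA and 14486 to 17950 CPM in Mfn2wt hearts. Of 8 adipocyte markers 5 passed the filter on low counts and 4 were higher: Cfd (3.98 against 0.13 CPM), Cidec (2.1 against 0.12 CPM), Adipoq and Plin1. Their sum over the list, in which Adipoq was at 0 in 2 of 6 Mfn2AA and 3 of 6 Mfn2wt hearts, was 507 to 768 against 472 to 636 CPM. Macrophage markers summed to 283 to 562 CPM in Mfn2AA and 201 to 279 CPM in Mfn2wt hearts, with 4 of 6 higher, among them the lysozyme gene Lyz2 (150 against 67.7 CPM). None of 10 other atrial genes was called by edgeR in this comparison, and 6 had an unadjusted p under 0.05; Nppa averaged 1866 against 256 CPM (adjusted p = 0.0934) and Mybphl 58.7 against 8.05 CPM (adjusted p = 0.172). Their part in the differences of Bmp10 and Dkk3 was not tested.

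In the remaining P21 comparisons no member was called by edgeR, DESeq2 or limma. The background was 0.574% for Mfn2AA against tet-off control, 0.604% for Mfn2wt against nontransgenic and 1.63% for tet-off control against nontransgenic, with 1, 0 and 0 members at an unadjusted p under 0.05. Bmp10 had the smallest p against tet-off controls, 84.5 against 6.53 CPM (3.72 ± 1.28, adjusted p = 0.185). In that comparison Myl7 had a lower mean in Mfn2AA, 362 against 451 CPM, but the other 4 control hearts held 8.15 to 43.7 CPM; heart P21_tetoff_10549-2 alone carried 2160 CPM among the 5 controls. Stard10 had the smallest p for Mfn2wt against nontransgenic (20.9 against 45.5 CPM, -1.11 ± 0.67, adjusted p = 0.799) and Bmp10 for the 2 controls (1.69 ± 1.61, adjusted p = 0.757).

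**Figure D4:**
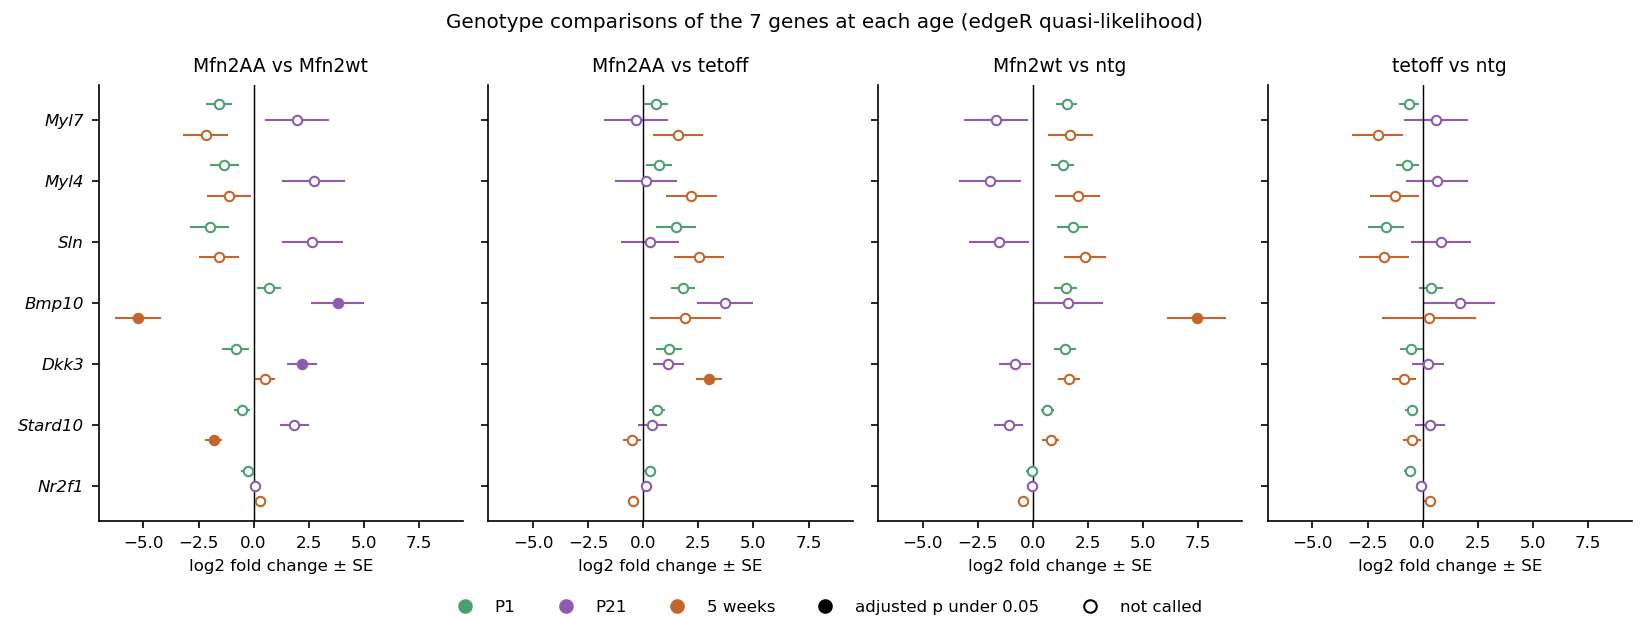
Log2 fold change of each of the 7 genes in the 4 genotype comparisons of each age (points, coloured by age, with bars of 1 standard error from edgeR); filled points passed an adjusted p of 0.05. Bmp10 passed in 3 comparisons, Dkk3 in 2 and Stard10 in 1, and Myl7, Myl4, Sln and Nr2f1 in none of the 12.

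At 5 weeks the order for Bmp10 was the reverse of P21. Mfn2AA hearts had less Bmp10 and Stard10 than Mfn2wt hearts. The groups share no number in their titles, so genotype and that number cannot be told apart here. Bmp10 read 0, 0, 0.505 and 5.69 CPM in Mfn2AA and 5.43, 60.1, 86.5 and 93.4 CPM in Mfn2wt hearts, a log2 fold change of -5.23 ± 1.05 (edgeR adjusted p = 0.00111). The groups overlapped by the pair of hearts at 5.43 and 5.69 CPM. Stard10 read 9.36, 14.7, 18.5 and 29.0 CPM against 44.6, 64.2, 65.6 and 77.3 CPM (-1.82 ± 0.39, adjusted p = 0.00191), with no overlap. In this comparison 38.5% of 13661 genes were called, 18.2% as lower, and the hearts of 34.3% of all genes did not overlap. The share of members called, 2 of 7, was thus under that background. Myl7 (-2.17 ± 1.03, adjusted p = 0.112), Sln (-1.57) and Myl4 (-1.12) had lower means in Mfn2AA without a call, and Dkk3 a higher one (97.8 against 69.4 CPM). Without Mfn2AA heart 5wk_Mfn2AA_10289-9, Myl7, Myl4 and Sln were called too, which made 5 of 7. Mfn2wt hearts 5wk_Mfn2wt_15926-4 and 5wk_Mfn2wt_15931-9, which held 86.5 and 93.4 CPM of Bmp10, were also the libraries with 34.4% and 17.6% of Rn45s reads, whose part was not tested.

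Dkk3 was the member called for Mfn2AA against tet-off controls at 5 weeks. It read 74.0, 77.0, 89.1 and 151 CPM in Mfn2AA and 3.39, 9.96 and 24.9 CPM in the controls, which did not overlap (2.97 ± 0.58, adjusted p = 0.00105). Here 35% of all genes were called, 18.9% as higher, and 37.7% did not overlap. Myl7, Myl4 and Sln had higher means in Mfn2AA (1.57, 2.17 and 2.54 on the log2 scale) and were not called; without Mfn2AA heart 5wk_Mfn2AA_10289-8 Sln was called beside Dkk3. In the tet-off controls valve and fibroblast markers summed to 1354 to 1998 CPM and macrophage markers to 169 to 211 CPM, against 9836 to 14020 and 369 to 898 CPM in Mfn2AA, and their part in the Dkk3 difference was not tested. Dkk3 in Mfn2AA was also high beside the light chains: heart 5wk_Mfn2AA_10289-8 held 77.0 CPM of Dkk3 with 6.95 CPM of Myl7, whereas tet-off control heart 5wk_tetoff_10289-3 held 24.9 CPM with 58.6 CPM.

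Bmp10 was the member called for Mfn2wt against nontransgenic hearts at 5 weeks. These groups, too, have no title number in common, so it cannot be told apart from genotype. The nontransgenic hearts read 0.0717, 0.149, 0.63 and 0.737 CPM, which are 1, 2, 4 and 8 reads, against 5.43 to 93.4 CPM, or 46 to 1273 reads, in Mfn2wt (log2 fold change 7.42 ± 1.33, adjusted p = 0.0185). The groups did not overlap. In this comparison 0.388% of all genes were called, 0.351% as higher, and 4.73% did not overlap. The nontransgenic heart of 5 weeks that was run in the P1 batch alone, 5wk_ntg_15933-3, is not in this comparison; its 12.4 CPM of Bmp10 lies above Mfn2wt heart 5wk_Mfn2wt_15934-5 at 5.43 CPM. Myl4, Sln and Dkk3 also did not overlap between the groups, all higher in Mfn2wt, with fold changes of 2.03 ± 1.02, 2.36 ± 0.94 and 1.64 ± 0.49 on the log2 scale that were not called (adjusted p = 0.992, 0.724 and 0.344). Leaving out Mfn2wt heart 5wk_Mfn2wt_15926-4 or 5wk_Mfn2wt_15931-9, or nontransgenic heart 5wk_ntg_10287-6, 5wk_ntg_15927-6 or 5wk_ntg_15928-7, ended the Bmp10 call, with adjusted p of 0.0585, 0.0561, 0.091, 0.0944 and 0.0743. Between tet-off control and nontransgenic hearts no member was called by edgeR, DESeq2 or limma, and none had an unadjusted p under 0.05; the background was 0.117%. Myl7 had the smallest p there (25 against 101 CPM, -2.04 ± 1.17, adjusted p = 1).

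Other atrial genes did not all go the way of the members at 5 weeks. Of 10 in the list, 2 were higher and 4 lower in Mfn2AA than in Mfn2wt, where 38.5% of all genes were called, 18.2% as lower. The other lists counted below for that comparison stand beside the same background and were not tested as lists. Nppa read 7224 to 13638 CPM in Mfn2AA, 1410 to 2301 CPM in Mfn2wt and 129 to 407 CPM in nontransgenic hearts (2.52 ± 0.41, adjusted p = 0.000225 for Mfn2AA against Mfn2wt). Kcnj3, the atrial acetylcholine-gated potassium channel, was lower, 7.48 against 37.9 CPM (-2.35 ± 0.22, adjusted p = 2.6e-06), as were Tbx5 (-1.11) and Kcnj5 (-0.85). Against nontransgenic hearts Mfn2wt had more Nppa (adjusted p = 0.0101) and Gja5 (23.2 against 9.82 CPM, adjusted p = 0.0398), and the other 8 were not called. Of all genes 0.388% were called between Mfn2wt and nontransgenic hearts. Of 7 ventricular markers 5 were lower in Mfn2AA than in Mfn2wt, with sums of 4257 to 6869 against 10802 to 12570 CPM, and larger differences were seen for other cell types. The summed valve and fibroblast markers were 9836 to 14020 CPM in Mfn2AA and 1534 to 2286 CPM in Mfn2wt hearts, with 5 of 6 tested genes higher, among them the collagen gene Col1a1 (5029 against 629 CPM). Macrophage markers summed to 369 to 898 against 179 to 334 CPM, with 5 of 6 higher. The part of these in the values of Bmp10 and Stard10 was not tested.

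Genes in the pathways of single members were counted beside them. Of the 17 genes of BMP10 reception and response, 6 were higher and 1 lower in Mfn2AA than in Mfn2wt at P21 among 16 tested, where 13.7% of all genes were called. The inhibitory Smad6 (31.5 against 15.3 CPM, 1.06 ± 0.16, adjusted p = 8.17e-05), Id2 (0.63) and Smad7 (0.58) had the greatest change of the higher ones, and Smad5 was the lower one (-0.24). At 5 weeks 6 of 17 were higher and 1 lower, where 38.5% of all genes were called (median log2 fold change 0.33, against 0.03 for all genes), with Id4 (1.86), Id2 (1.27) and Smad7 (0.87) the greatest; Acvrl1, the BMP10 receptor, was among the 6 (76.6 against 47.1 CPM, 0.71 ± 0.12). These counts are given beside the backgrounds of their comparisons and were not tested as lists. Of 8 genes of the SERCA pump and its regulators, beside Sln, 4 were lower in Mfn2AA at 5 weeks, among them Atp2a2, the pump itself (2842 against 7828 CPM), and phospholamban, Pln (601 against 1818 CPM). No gene of the Dickkopf and Wnt receptor list was called by edgeR beside Dkk3 at 5 weeks (6 tested) in either comparison of Mfn2AA, and 1 had an unadjusted p under 0.05 in each. Of 9 START genes beside Stard10, 2 were higher and 2 lower in Mfn2AA than in Mfn2wt at 5 weeks, with Star (1.41), Stard7 (-0.59) and Stard5 (0.50) the greatest. In the myosin light chain list, 4 genes were higher and 3 lower of 11 tested. The START, SERCA and light chain counts of 5 weeks stand beside the same background of 38.5%. Those of the Dickkopf list stand beside 38.5% against Mfn2wt and 35% against tet-off control.

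The turn between P21 and 5 weeks was tested as a contrast of contrasts across 14610 genes. Mfn2AA minus Mfn2wt moved by -9.01 ± 1.71 for Bmp10 (edgeR adjusted p = 3.46e-05) and by -3.69 ± 0.84 for Stard10 (adjusted p = 0.000429) on the log2 scale from P21 to 5 weeks, and 36% of all genes were called, 18.3% as lower. Sln (-4.27), Myl7 (-4.17) and Myl4 (-3.86) had unadjusted p under 0.05 and no call. The mutant cDNA had the higher median FPKM at P1 and at P21 and the lower one at 5 weeks. At P1, 6 of the 7 members had lower means in Mfn2AA than in Mfn2wt, without a call. The part of the transgene level in these differences was not tested. Age and library batch are the same split here, and a batch effect common to both genotypes cancels. Mfn2AA and Mfn2wt hearts share no title number at P1, P21 or 5 weeks, so that number cannot be told apart from genotype. From P1 to P21 no member was called by edgeR or DESeq2 (background 0.308%, 4 members at an unadjusted p under 0.05), with Dkk3 closest (3.01 ± 1.01, adjusted p = 0.252). For tet-off control minus nontransgenic none was called in either interval, and none had an unadjusted p under 0.05 (background 0.13% from P1 to P21 and 0.897% from P21 to 5 weeks). The smallest p were those of Nr2f1 (0.48 ± 0.31, adjusted p = 0.837) and Myl7 (-2.65 ± 2.00, adjusted p = 0.847).

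Ages were compared within the P1 batch, on nontransgenic hearts of P1 (6), P21 (3) and 5 weeks (4). Sln (116 against 19.1 CPM, 2.55 ± 0.60, adjusted p = 0.00136) and Stard10 (59.1 against 22.6 CPM, 1.36 ± 0.33, adjusted p = 0.00204) were higher at P21 than at P1, where 57.6% of 13534 genes were called, 29% as higher. Myl7 was lower at 5 weeks than at P1, 114 against 426 CPM (-1.92 ± 0.62, adjusted p = 0.0113), with 67.7% of all genes called, 34.9% as lower. Myl7 (-2.55 ± 0.70, adjusted p = 0.0147), Myl4 (-2.25), Sln (-2.33) and Stard10 (-1.12) were lower at 5 weeks than at P21, with 22.4% called, 10.8% as lower. In each of the 3 comparisons the groups overlapped for the members called. Whole heart against left ventricle in the labels is the same split as P1 against the later ages and cannot be told apart from age.

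The calls that involve P21 ended without heart P21_ntg_10547-2. Of the 3 P21 hearts in the P1 batch, P21_ntg_10547-2 read 1638 CPM of Myl7, 263 CPM of Sln and 114 CPM of Stard10, and hearts P21_ntg_10547-1 and P21_ntg_10547-5 read 203 and 186, 49.9 and 33.6, and 31.4 and 31.5 CPM. Without heart P21_ntg_10547-2 no member was called between P21 and P1 (Sln 1.09, adjusted p = 0.121; Stard10 0.45, adjusted p = 0.152) or between 5 weeks and P21 (Myl7 -0.77, adjusted p = 0.362; Myl4 -0.67, adjusted p = 0.435; Sln -0.87, adjusted p = 0.346; Stard10 -0.21, adjusted p = 0.621). Leaving out 5-week heart 5wk_ntg_15927-6 ended the calls of Myl4, Sln and Stard10 between 5 weeks and P21 (adjusted p = 0.0528, 0.0512 and 0.107), and leaving out heart 5wk_ntg_15933-3 or 5wk_ntg_15935-10 ended that of Stard10 (adjusted p = 0.0643 and 0.0636). With each age taken from its own batch no member was called in the comparisons that involve P21. At 5 weeks against P1 Bmp10 was then the member called, and Myl7 was at -2.07 (adjusted p = 0.0868). Other atrial genes did not all move alike: between P1 and P21 6 of 10 were higher, led by Mybphl (2.93), Kcnj3 (2.13) and Nppa (1.99), and 2 were lower, among them Gja5 (-0.79). Of all genes 57.6% were called between P1 and P21, 29% as higher.

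Libraries made again from the same RNA showed how far preparation moves these levels. For P21 heart P21_ntg_10547-2 Myl7 read 1360 and 1638 CPM, Myl4 1372 and 1330 CPM and Sln 209 and 263 CPM in its own batch and in the P1 batch. Bmp10 in heart P21_ntg_10547-1 read 9.15 and 8.48 CPM. With the heart as a block, Myl7 (0.33 ± 0.07, adjusted p = 0.00911) and Sln (0.46 ± 0.08, adjusted p = 0.00372) were higher in the P1 batch among 6 members tested, and 14.1% of 12994 genes were called, 7.39% as higher. For the 3 hearts of 5 weeks Stard10 was lower in the P1 batch (-0.61 ± 0.15, adjusted p = 0.046), with 10.2% of 12491 genes called, 5.52% as lower. Leaving out heart P21_ntg_10547-1 ended the P21 calls (adjusted p = 0.172 for Myl7 and 0.0705 for Sln), leaving out heart P21_ntg_10547-5 gave calls for 4 members (Myl7, Nr2f1, Sln and Stard10), and leaving out heart 5wk_ntg_15928-7 ended the call of Stard10 (adjusted p = 0.197) while leaving out heart 5wk_ntg_15927-6 added Sln. Bmp10 was below the filter on low counts in both. Single hearts shifted by more than these means. Nr2f1 in heart 5wk_ntg_15935-10 read 5.36 CPM (34 reads) in its own batch and 1.91 CPM (11 reads) in the P1 batch, a ratio of 0.356, and Sln in that heart read 12.1 and 24.6 CPM, a ratio of 2.03.

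**Figure D5:**
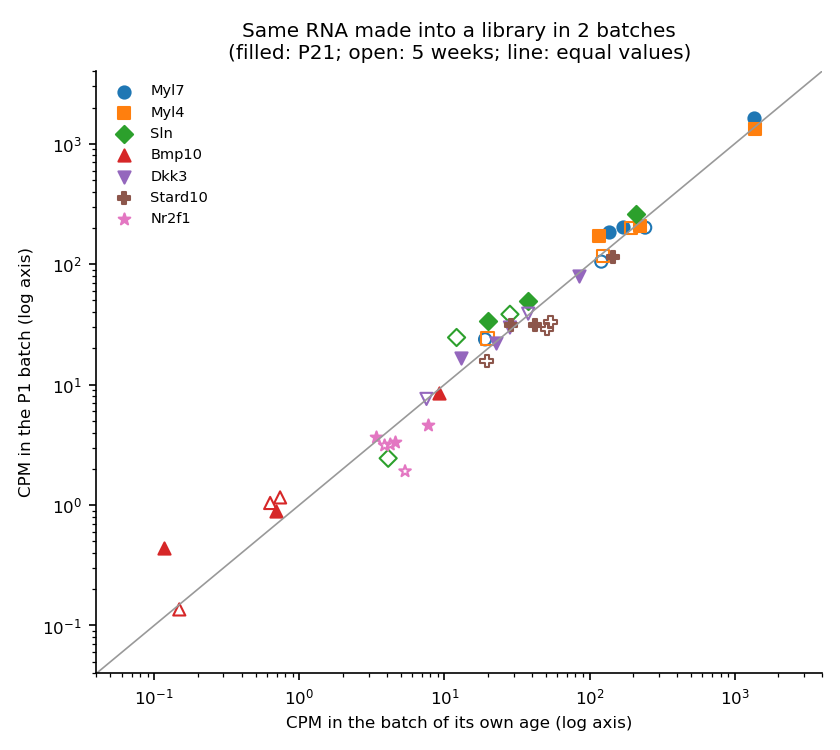
Level of the 7 genes in the 6 nontransgenic hearts whose RNA was made into a library both in its own batch and in the P1 batch (TMM CPM, log axes), with the line of equal values. The points of Myl7 lie near the line over the range from heart P21_ntg_10547-2, with 1360 and 1638 CPM of Myl7, to heart 5wk_ntg_15927-6, with 19.1 and 23.8 CPM.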

How the data were processed

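Polyadenylated RNA of hearts was made into single-end libraries that do not keep strand, per the labels' protocols. The deposited counts are whole reads per gene and the deposited FPKM values are scaled by transcript length and library size; the submitters' processing notes name Bowtie2, TopHat2 2.0.10, HTSeq, Cufflinks 2.1 and mm10. Levels of different genes were compared in FPKM only, since CPM (counts scaled to library size) is not per length. Reads from near-identical gene copies may have been split by the counting.

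Counts were tested with edgeR 4.0.16 in R 4.3.3 (TMM scaling, filterByExpr, quasi-likelihood F test, Benjamini-Hochberg adjustment over all genes tested, called under an adjusted p of 0.05). Each age was fitted with its 4 genotype groups, and changes between ages as contrasts over all groups. Nontransgenic hearts of the 3 ages were compared in the P1 batch, and repeated libraries with the heart as a block. Alternatives were other size factors, no filter, DESeq2 1.42.0, limma 3.58.1 on log2(FPKM + 1), the compared groups alone, the number in the titles as a block, and leaving out each library. Standard errors of fold changes are from edgeR. Nothing in the labels states that hearts of a group came from separate litters, so p-values measure the spread between these hearts. Pairs of genes were tested with 100000 permutations, and the edgeR test was tested on simulated data.

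The fold change is given for every member called, or for the member with the smallest p where none was, and for up to 3 called and 2 other genes of each list of related genes; a few further values were chosen after they were seen. The members and lists were chosen with earlier results of these data known.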

Additional observations from a re-analysis of the deposited data

Results flagged for a closer look

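Hearts that stood apart from the rest of their group by Dixon's criterion, on CPM without a logarithm, were found in 21 of 77 sets of 1 gene and 1 group (27.3%). The criterion flags about 1 in 20 independent sets of normally distributed values. CPM of these genes was skewed and the genes varied together, so 27.3% cannot be set against that rate. P21 nontransgenic heart P21_ntg_10547-2 stood apart as the highest for 5 genes, with 1360 CPM of Myl7, 1372 of Myl4, 209 of Sln, 84.3 of Dkk3 and 144 of Stard10. P21 tet-off control heart P21_tetoff_10549-2 did so for the same 5 genes, with 2160 CPM of Myl7, 2255 of Myl4, 393 of Sln, 87.1 of Dkk3 and 197 of Stard10. P1 nontransgenic heart P1_ntg_10582-1 was apart for Myl4 (625 CPM), Dkk3 (87.2 CPM) and Stard10 (36.6 CPM), and P1 tet-off control heart P1_tetoff_10587-3 for Sln (15.2 CPM) and Dkk3 (54.0 CPM).

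The hearts that stood apart for Bmp10 were other ones: P21 Mfn2wt heart P21_Mfn2wt_10547-8 at 35.5 CPM, P21 nontransgenic heart P21_ntg_10547-1 at 9.15 CPM, Mfn2AA heart 5wk_Mfn2AA_10289-7 of 5 weeks at 5.69 CPM, and nontransgenic heart 5wk_ntg_15933-3 of 5 weeks, run in the P1 batch, at 12.4 CPM. None of these 4 held the highest Myl7 of its group. Mfn2AA heart 5wk_Mfn2AA_10289-9 of 5 weeks stood apart for Myl4 at 548 CPM. Nontransgenic heart 5wk_ntg_15935-10 of 5 weeks held a low outlying value of Nr2f1, 1.91 CPM in the P1 batch, against 5.36 CPM in its own batch.

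The difference between Mfn2AA and Mfn2wt hearts changed from P21 to 5 weeks for Bmp10 (-9.01 on the log2 scale) and Stard10 (-3.69) by edgeR's test of the change itself.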

How the results depend on the processing

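The fold changes recomputed under the alternatives were those of the members called, or of the member with the smallest p where none was called, and none of these changed sign. Scaling by RLE size factors changed no call. For Mfn2AA against Mfn2wt at P21, 2 members were called; DESeq2 called 1 (Dkk3), limma on FPKM 0, and leaving out single hearts gave 0 to 3. For the same comparison at 5 weeks (2 called) leaving out single hearts gave 2 to 5, for Mfn2AA against tet-off control (1 called) 1 to 2, and for Mfn2wt against nontransgenic (1 called) 0 to 1. Between ages, limma called 0 members for P21 against P1, 3 for 5 weeks against P1 and 0 for 5 weeks against P21, and DESeq2 called 2 for the last. Using no filter, or the 2 groups alone, gave 2 for 5 weeks against P1. With each age in its own batch the counts were 0 for P21 against P1 and 0 for 5 weeks against P21. Leaving out single hearts gave 0 to 3, 1 to 2 and 0 to 4 in the 3 age comparisons, and 0 to 4 and 0 to 2 for the repeated P21 and 5-week RNA. Without the replicate block, 0 members were called in either set of repeated libraries. Over all genes, deviations from the group mean were correlated between hearts of the 2 groups of a comparison. Median r was -0.026 to 0.196 for hearts that share a title number, in 5 comparisons, and -0.306 to 0.025 for other pairs. For Mfn2AA against tet-off control at 5 weeks it was 0.196 against -0.306. These correlations were not tested. In the other genotype comparisons the groups share no number, so it could not serve as a block. In these 5 the number as a block changed no member's call: 0 members were called in 4 and 1, Dkk3, for Mfn2AA against tet-off control at 5 weeks. The count over all genes fell from 78 to 8 for Mfn2AA against tet-off control at P21 and from 20 to 2 for Mfn2wt against nontransgenic at P1. DESeq2 called 62, 16, 183 and 432 genes in the 4 P1 comparisons, where edgeR called 17, 1, 20 and 177. Group means scaled otherwise stood at 0.684 to 1.23 times the values given. Depth limits Bmp10, which had 1 to 8 reads in the nontransgenic hearts of the 5-week batch.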

Other observations

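Hcn4, a pacemaker channel gene, was higher in Mfn2AA than in Mfn2wt hearts at P21 (14.2 against 7.65 CPM, 6 hearts each, log2 fold change 0.89, edgeR adjusted p = 0.00292), as was the calcium channel gene Cacna1g (104 against 57.8 CPM, log2 fold change 0.85, adjusted p = 0.000284). The hearts of the 2 groups did not overlap for either gene.

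Scgb1a1, a secretoglobin of airway club cells, was read in some nontransgenic hearts of 5 weeks. Heart 5wk_ntg_15928-7 held 124 CPM in its own batch and 235 CPM in the P1 batch, heart 5wk_ntg_15927-6 held 16.5 and 21.7 CPM, and heart 5wk_ntg_15933-3 held 8.51 CPM. No P21 library held more than 0.255 CPM.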
